A study of Mus musculus with 2 samples.

Results

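The DNA replication factors are the proteins that license origins, open and copy the double helix, supply its nucleotides, and switch these genes on before S phase. Here they were 47 named genes, taken as every probe set of the deposited table whose platform annotation gives exactly 1 symbol and whose symbol is in the list. The rule found 104 probe sets for all 47 genes, among 45037 probe sets and 18193 named genes on the array. The list follows gene function and its rule uses no measured value, but it was drawn up with earlier results of these data known. RNA came from bone marrow neutrophils sorted by flow cytometry as positive for CD11b and Ly6G with low Ly6C, and was hybridised to Affymetrix arrays. There was 1 array for mice labelled Jdp2 KO and 1 array for mice labelled Jdp2 WT. Both were given the strain C57BL/6 /129/J mixed background, with no treatment named. The sources used here give neither the age of the mice, nor the deleted part of Jdp2, nor how many mice an array stands for. A single array for each label leaves the spread between mice unknown, so the differences carry no p-value. Values are log2 signals, and every difference is taken as knockout label minus wild-type label.

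Replication starts at origins bound by the origin recognition complex, where Cdc6 and Cdt1 load the Mcm2 to Mcm7 ring. Cdc45 and the GINS complex turn that ring into the active helicase. Primase then makes primers, and replicative polymerases copy the strands on the sliding clamp Pcna, which the replication factor C complex loads. E2F transcription factors, freed from the retinoblastoma protein by cyclin-dependent kinases, drive many of these genes as cells leave G1. In the neutrophil lineage division is known to end at the myelocyte stage, and mature neutrophils do not replicate their DNA.

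The promoters of the members were searched for the letters E2F factors are known to bind, and the matches are shown because many members share them beyond their function. The letters were TTTCGCGC, TTTGGCGC, TTTCCCGC and TTTGCCGC on either strand, in RefSeq windows of 300 bases that run from 250 bases before to 50 bases after a start, in build GRCm38.p6. A window was found for 39 of the 47 members, and 17 of these 39 held at least 1 match (43.6%). The share was 2.26% of all 32851 windows, 2.6% of all genes with a window and 4.52% of genes whose transcripts passed the level filter described below. Among those with a window at least as rich in G and C as the members' median window it was 5.29%. Of 27 mitotic genes with a window, 1 held a match (3.7%). The simpler CCAAT letters, which NF-Y is known to bind, were in 66.7% of the members with a window, 70.4% of the mitotic genes and 41.1% of all genes. In 11 of the 17 members a match lay wholly before the start. The windows of the MCM genes with a match, of Gins3, which had the largest difference, and of Orc1 read as follows, 5′ to 3′ on the strand of the gene, with the matched letters in capitals in either orientation.
Mcm3: GCGGGAAAacttgggaagtTTTGGCGC
Mcm5: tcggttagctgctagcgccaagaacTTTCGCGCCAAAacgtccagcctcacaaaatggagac
Mcm6: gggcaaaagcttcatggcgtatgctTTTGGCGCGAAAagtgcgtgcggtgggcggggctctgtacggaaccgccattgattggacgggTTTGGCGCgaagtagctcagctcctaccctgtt
Mcm7: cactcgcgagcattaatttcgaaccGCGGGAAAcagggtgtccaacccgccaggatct
Gins3: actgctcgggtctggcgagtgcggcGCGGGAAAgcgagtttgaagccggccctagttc
Orc1: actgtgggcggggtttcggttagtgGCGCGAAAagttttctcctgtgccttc
The Mcm3 stretch lies just after the start, at chr1:20820267-20820293 on the minus strand. Before their starts lie those of Mcm5 (chr8:75109331-75109392, plus strand), Mcm6 (chr1:128359720-128359840, minus strand), Mcm7 (chr5:138172016-138172073, minus strand), Gins3 (chr8:95633493-95633550, plus strand) and Orc1 (chr4:108579402-108579453, plus strand). In Mcm5 and in Mcm6 a pair of matches on opposite strands overlap, which gives the run of capitals longer than 8 letters. Mcm7 holds a further match after its start that is not shown. A match describes the letters and does not show that a factor is bound there.

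The arrays were close, with median signals of 5.67 (knockout label) and 5.65 (wild-type label). Jdp2 did not check the labels. Its probe sets read 12.38 and 5.40 on the array labelled knockout and 12.00 and 5.24 on the other, and whether these probes lie in the deleted part is unknown here. All 14 neutrophil markers that could be named passed the level filter, with medians of 13.95 and 13.89. Passing does not tell cell types apart, since 14 of 15 monocyte and macrophage genes that could be named also passed. Ly6g, on which the cells were sorted, was not analysed here. Of several probe sets for a gene, the brightest on average stood for it, and the gene passed the level filter if the larger of its readings was no lower than the median probe set of that array. Each probe set has its own brightness, so levels of different genes are not compared.

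Most replication factors read somewhat higher on the array labelled knockout, and none reached 2-fold. Of the 47 members, 43 passed the level filter, and all 43 also did so when both of their values had to reach the median. This holds for the probe set that stood for each gene, not for all of its other probe sets. Of these 43, 35 had a difference above 0, against 44.8% of the 11168 genes that passed. Over all 47 members the count was 37, against 46.5% of all 18193 genes. The median difference of the 43 was 0.34, with quartiles of 0.10 and 0.58, while the median of all genes that passed was -0.04. No member was at least 2-fold higher as reported (Mcm3 passed that mark, at 1.003 and 1.01, after quantile normalisation and after removal of a lowess trend), against 3.06% of all genes that passed, and none was at least 2-fold lower, against 2.33%. At 1.5-fold, 11 of the 43 were higher, against 8.49% of all genes, and none was lower, against 8.86%. The RNA comes from a population of cells, so a difference in the number of cells of a type and one in RNA per cell cannot be told apart.

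**Figure D1:**
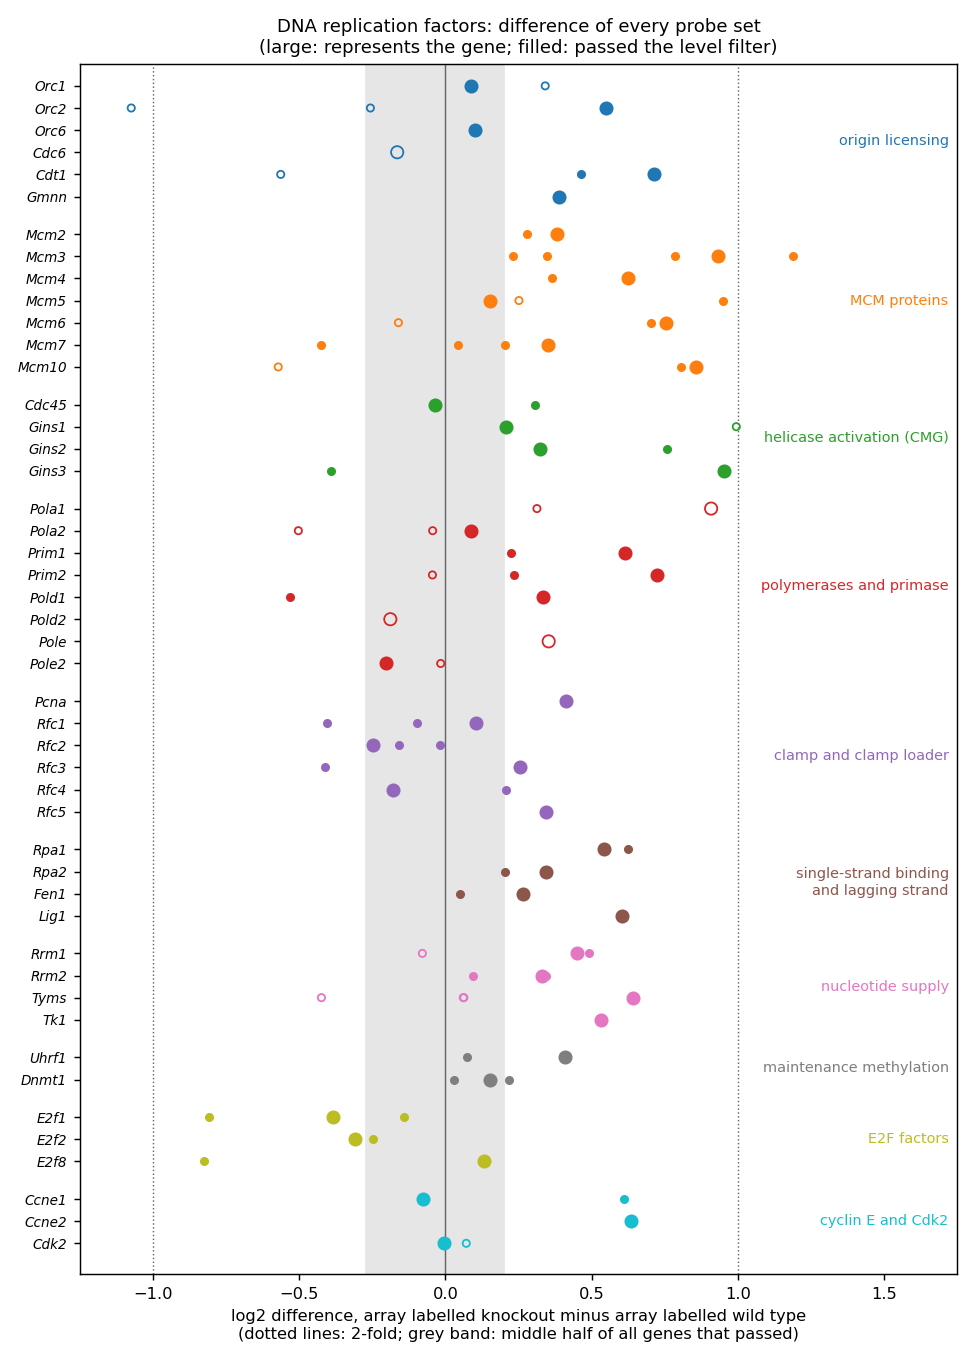
The log2 difference of all 104 probe sets of the 47 replication factors is plotted along the horizontal axis, in rows by gene and role. Large points represent the gene, filled points passed the level filter, the grey band spans the quartiles of all genes that passed (-0.27 to 0.20) and dotted lines mark 2-fold. All 7 large points of the MCM genes lie to the right of 0, and those of E2f1 and E2f2 lie to the left of the band.

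Beside these genes other markers also differed, and their part in the result was not tested. Of all genes that passed, 44.8% were above 0, 3.06% at least 2-fold higher and 2.33% at least 2-fold lower. All 7 primary granule genes that passed, which neutrophil precursors make at the promyelocyte stage, had a difference above 0, and 6 were at least 2-fold higher. Their median difference was 2.86. Ctsc, 1 of those at 2-fold, gave 1.05 by the probe set that stood for it and -0.61 by another that passed. The summed signal on the linear scale of the 7 primary granule genes that could be named was 22600 on the array labelled knockout and 15700 on the other. Most of both sums came from Srgn, which read 13.98 and 13.78, a difference of 0.21, so the sums say little of the other genes. Mpo, encoding myeloperoxidase, read 11.02 and 5.93. Of 14 monocyte and macrophage genes that passed, 13 were above 0 and 9 at least 2-fold higher, with a median of 1.16 and summed signals of 11000 and 6860 over 15 genes. Csf1r, the receptor that defines these cells, read 11.76 and 11.48. Of the monocyte and macrophage genes at 2-fold, F13a1, Ms4a6c, C1qa and C1qc passed through the array labelled knockout alone. With their wild-type readings set no lower than 5.65, the median of that array, F13a1 stayed at 3.25-fold. Ms4a6c (1.76-fold), C1qa (1.71-fold) and C1qc (1.78-fold) then fell short of 2-fold. Prtn3 and Ctsg, primary granule genes that passed in the same way, stayed at 3.06-fold and 6.64-fold. Platelet genes had a median of 0.76 over 7 genes, 5 of them above 0, with summed signals of 4890 and 2920. The erythroid genes that passed had no member above 0 of 3 (summed signals 1080 and 1360), stem and progenitor genes 4 of 9 (4480 and 5030) and B cell genes 3 of 5 (1200 and 1590). T and NK cell genes had 4 of 5 above 0 (1650 and 1340). Neutrophil markers had 5 of 14 above 0, a median of -0.06 and summed signals of 197000 and 199000. Cd34 and Flt3 of progenitors and Pax5 and Ms4a1 of B cells were below the level filter, as were Klf1 and Gata1 of erythroid cells. In the same lists Cd48 (1.98) and Mecom (1.34) of progenitors and Igll1 (1.15) and Cd79a (0.85) of B cells were higher, while Kit (-0.82) and Ighm (-0.93, passing probe sets from -1.45 to 0.07) were lower. Cd48 and Igll1 also passed through the array labelled knockout alone. With their wild-type readings set no lower than 5.65, Cd48 stood at 3.63-fold and Igll1 at 1.60-fold.

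The MCM proteins were the role with the highest median difference, 0.63 over 7 genes, all of them above 0. They kept that rank among the 10 roles under each of 8 other settings of level filter, scaling and probe set choice, in some by little. With the mean of all probe sets their median was 0.431, against 0.428 for factors of the lagging strand. With the level filter at the 75th percentile it was 0.625, against 0.614 for polymerases and primase. Mcm3, a subunit of the ring, read 8.74 on the array labelled knockout and 7.81 on the array labelled wild type, a 1.91-fold difference. All 5 of its probe sets were above 0, from 0.23 to 1.19, and the highest of these was the 1 member probe set that passed the filter and reached 2-fold. It carries a suffix of the maker for probes that may match other sequences, as does the probe set that stood for Mcm3. The Mcm3 probe sets without such a suffix gave 0.78, 0.35 and 0.23. Across all probe sets that passed, 2.81% were at least 2-fold higher and 2.33% at least 2-fold lower. Mcm6 read 8.54 and 7.79, a 1.68-fold difference, and a further probe set that passed gave 0.70. Mcm4 read 11.12 and 10.49, which is 1.54-fold, by a probe set with a suffix of that kind, and its other probe set, without one, gave 0.37. Both were higher on the array labelled knockout by every probe set that passed. Mcm10, a separate factor that acts with the ring at initiation, read 6.61 and 5.75, and its probe sets that passed gave 0.81 and 0.86. Its wild-type value lies close to the array median, where background makes up more of a signal.

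The remaining ring subunits showed smaller or less uniform differences. Mcm2 had a difference of 0.38, with its second probe set at 0.28. Mcm5 stood at 0.15 by the probe set that represents it and at 0.95 by another that passed. Mcm7 stood at 0.35, but its 4 probe sets ran from -0.43 to 0.35. Of the 17 probe sets of Mcm2 to Mcm7 that passed, 16 were above 0, and the exception was a probe set of Mcm7. Across the array 43.6% of the probe sets that passed were above 0.

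Licensing factors that bring the ring to origins were all above 0 where they passed, with a median of 0.39 over 5 of 6 genes. Cdt1, which loads the ring together with Cdc6, read 8.74 and 8.03, a 1.64-fold difference. Its other probe set that passed gave 0.46 and did so through the array labelled knockout alone. Gmnn, encoding geminin, the inhibitor of Cdt1, had a difference of 0.39 by its only probe set. Factor and inhibitor were thus both higher on the array labelled knockout. Orc2, a subunit of the origin recognition complex, read 6.32 and 5.77, but its other probe sets, both below the filter, gave -0.26 and -1.07. Orc1 and Orc6, of the same complex, differed by 0.09 and 0.10. Cdc6 did not pass, at 5.24 and 5.41.

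The helicase activators differed among themselves. Gins3, a subunit of the GINS complex, had the largest difference of any member that passed, reading 7.54 and 6.59, a 1.93-fold difference. Its other probe set that passed pointed the other way, at -0.39. That probe set read 5.44 and 5.83 and passed through the array labelled wild type alone. Gins2 gave 0.32 and 0.76 by its probe sets and Gins1 0.21 by the probe set that passed, so both lay above 0. The Gins2 probe set at 0.76 passed through the array labelled knockout alone. Cdc45, which joins GINS on the ring, differed by -0.04, with a further probe set at 0.31.

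Among polymerase genes the primase subunits stood highest. Prim1, the catalytic subunit that makes RNA primers, read 9.40 and 8.79, and Prim2, its partner, read 9.03 and 8.31. These are differences of 1.53-fold and 1.65-fold, and their other probe sets that passed gave 0.22 and 0.24. Both primase genes were thus higher by every probe set that passed, by amounts that depended on the probe set. Pola2, the accessory subunit of the polymerase that extends primers, differed by 0.09, and Pole2, a subunit of the leading-strand polymerase, by -0.20. Pold1, the catalytic subunit of polymerase delta, gave 0.33 by one probe set and -0.53 by the other, which passed through the array labelled wild type alone. Pola1 (5.08 and 4.18), Pold2 (4.79 and 4.98) and Pole (5.47 and 5.11) did not pass the filter, and their differences are not read.

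The clamp and its loader did not move together. Pcna, the clamp, read 11.45 and 11.03, a 1.33-fold difference by its only probe set. The subunits of its loader were spread around 0, with Rfc1 at 0.10, Rfc2 at -0.25, Rfc3 at 0.25, Rfc4 at -0.18 and Rfc5 at 0.34. Rfc1, the large subunit, read 10.98 and 10.88, and its other probe sets gave -0.10 and -0.40. All 3 probe sets of Rfc2 were below 0. Of the 11 loader probe sets that passed, 4 were above 0, with a median of -0.10, beside a median of -0.05 for all probe sets that passed.

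Factors of the lagging strand were all above 0. Rpa1, the large subunit of the complex that coats single-stranded DNA, read 9.48 and 8.94, a 1.45-fold difference, and its other probe set gave 0.63. Lig1, the ligase that joins Okazaki fragments, read 8.26 and 7.65, which is 1.52-fold by its only probe set. Rpa2 gave 0.34 and 0.20. Fen1, the nuclease that trims the flaps between fragments, read 11.19 and 10.92, and its other probe set gave 0.05. In this role no probe set was below 0.

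Enzymes of nucleotide supply were also all above 0, with a median of 0.49 over 4 genes. Tk1, thymidine kinase of the salvage route, read 8.76 and 8.23, a 1.44-fold difference. Rrm1, the large subunit of ribonucleotide reductase, read 8.90 and 8.45, and its second probe set that passed gave 0.49. Rrm2, the subunit whose level follows S phase, read 12.24 and 11.91, with its other probe sets at 0.34 and 0.09. Tyms, thymidylate synthase, read 6.42 and 5.78, but its other 3 probe sets lay below the filter and ran from -0.42 to 0.06. The difference of Tyms therefore rests on 1 weak probe set. Uhrf1 and Dnmt1, which copy DNA methylation onto the new strand, gave smaller differences. Uhrf1 read 11.58 and 11.17 and Dnmt1 read 12.08 and 11.92, and all 5 probe sets of this pair were above 0.

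**Figure D2:**
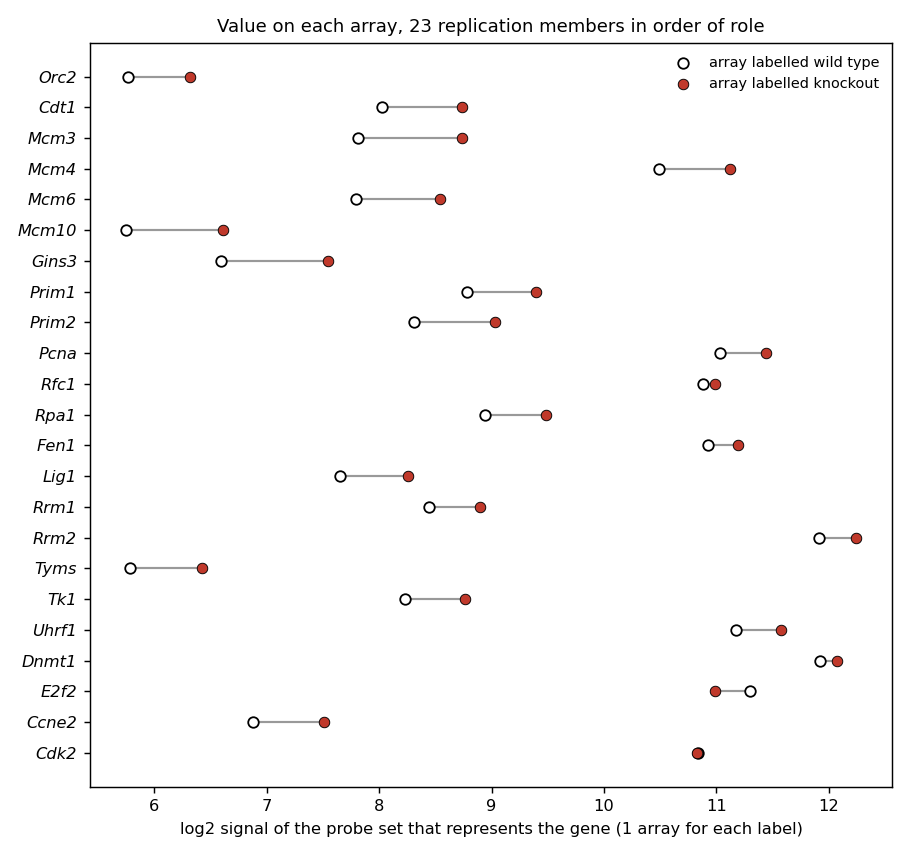
Open circles give the log2 signal on the array labelled wild type and red circles that on the array labelled knockout, for the 15 members with the largest absolute difference and the 8 with the highest mean among those that passed. In 21 of the 23 rows the red circle lies to the right. E2f2 lies to the left, and the circles of Cdk2 coincide.

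The E2F factors themselves did not share this direction. E2f2, an activator, read 10.99 on the array labelled knockout and 11.30 on the array labelled wild type, a 1.24-fold difference, and its other probe set gave -0.25. E2f1, also an activator, differed by -0.38, and its 3 probe sets ran from -0.81 to -0.14. E2f8, a repressor that limits these genes later in the cycle, gave 0.13 by one probe set and -0.83 by the other. Of their 7 probe sets that passed, 1 was above 0, beside 43.6% of all probe sets that passed. Those at -0.81 (E2f1) and -0.83 (E2f8) passed through the array labelled wild type alone. On the array labelled knockout they read 5.06 and 5.28, below its median. Cyclin E, the partner of Cdk2 at entry into S phase, was split between its genes. Ccne2 read 7.51 and 6.87, a 1.55-fold difference by its only probe set. Ccne1 gave -0.08 by one probe set and 0.61 by the other. Cdk2 read 10.83 on both arrays, a difference of -0.0038, and the sign of this value changed under 4 of 6 other settings.

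Agreement between the probe sets of a gene gives the only spread these data hold, and it is technical. Over 4867 genes with at least 2 passing probe sets, the pooled SD of the difference within a gene was 0.36. Differences of 0.5 or more were reached by 14 of the 43 members. The lowest of these was Tk1 (0.53), and 9.73% of all genes that passed lay at or above its value. Of 29 members with at least 2 passing probe sets, 17 had all of them above 0 (58.6%), against 20.3% of such genes across the array. In 3 members, Rfc2, E2f1 and E2f2, all were below 0, against 31.9% across the array. The other 9 were mixed. Averaging every probe set of a gene, those below the filter included, brought Gins3 to 0.28, Mcm10 to 0.36, Mcm6 to 0.43, Prim2 to 0.30, Cdt1 to 0.20, Tyms to 0.09, Rfc1 to -0.13 and Orc2 to -0.26. Mcm3 (0.70), Mcm4 (0.50) and Rpa1 (0.58) moved by less. Another 14 members that passed had 1 passing probe set. Counted by probe set, 62 of the 82 that passed were above 0, with a median of 0.26. Of the 22 that did not pass, 9 were above 0, with a median of -0.04.

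**Figure D3:**
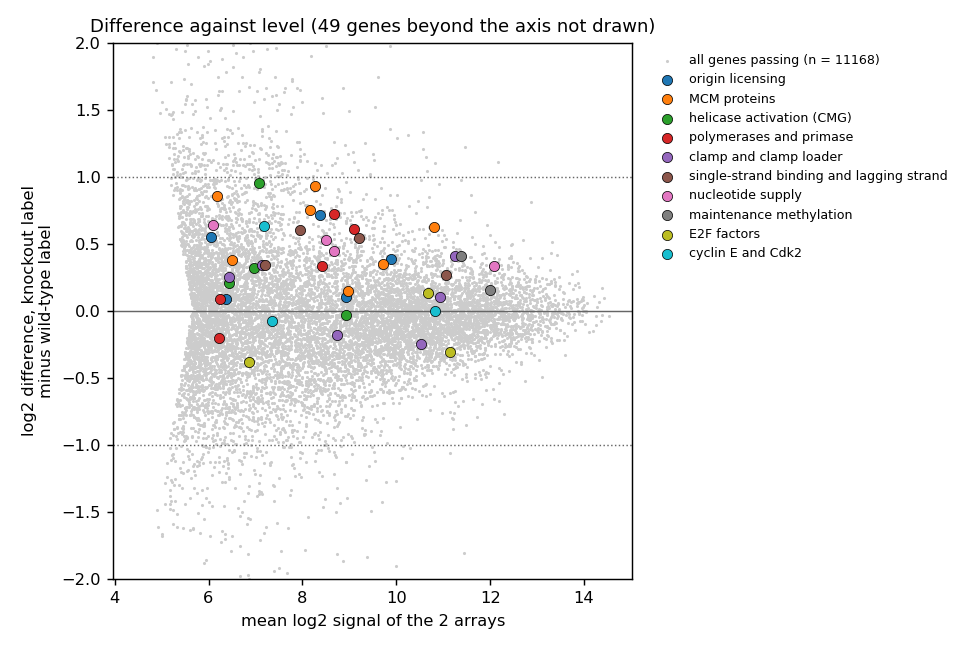
The log2 difference is plotted against the mean log2 signal of the 2 arrays for all 11168 genes that passed (grey) and the 43 replication factors that passed (coloured by role). The members span a wide range of levels, and 35 of the 43 lie above 0, all within the dotted lines that mark 2-fold.

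Members above 0 were found at every level of signal. With all passing genes split into quartiles of mean level, the members above 0 were, from weakest to brightest, 7 of 8, 8 of 10, 12 of 14 and 8 of 11. The share of all passing genes above 0 was 51.5%, 46.6%, 38.4% and 42.9% in the same order. Members with the E2F letters and members without them had similar differences on these arrays. Of the 15 that passed and held the letters, 12 were above 0 with a median of 0.33. Of the 21 that passed with a window but no match, 17 were above 0 with a median of 0.34.

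Other genes of the pathway, from 6 lists written with earlier results of these data known, leaned the same way by less. Of 81 listed genes 69 passed, 47 of them were above 0, 1 was at least 2-fold higher and 1 at least 2-fold lower, and the median was 0.14. The shares of all genes that passed were 44.8% above 0, 3.06% at least 2-fold higher and 2.33% at least 2-fold lower. Other genes of licensing and firing had a median of 0.11, with 9 of 12 above 0. Mcm9, which forms a helicase used in repair, gave 0.65, Ticrr, which brings Cdc45 to origins, 0.44 (passing probe sets from -0.08 to 0.44), and Wdhd1, a fork protein, 0.32. Other polymerase, fork and loader genes had a median of 0.16, with 12 of 18 above 0. Dna2, a nuclease of long flaps, read 9.96 and 9.13, while Chtf8, of an alternative clamp loader, read 7.39 and 8.50, a 2.15-fold difference in the other direction. Rnaseh2a, the catalytic subunit of an enzyme that removes RNA from DNA, differed by -0.94. Chtf8 and Rnaseh2a each rest on 1 passing probe set.

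Nucleotide synthesis genes outside the members had a median of 0.23, with 9 of 11 above 0, against 44.8% of all genes that passed. The largest differences were those of Ctps, which makes CTP (0.81), Shmt1, of the folate cycle (0.71), and Paics, of purine synthesis (0.48). Genes of histone supply and chromatin assembly had a median of 0.05, with 4 of 7 above 0, with Hells at 0.33, Slbp at 0.23 and Asf1a at -0.33 by one passing probe set and 0.45 by the other. Regulators of E2F and of G1 had a median of 0.24, with 10 of 17 above 0. Skp2, the receptor of the ubiquitin ligase that removes the inhibitor p27, read 8.004 and 6.86, a 2.22-fold difference, and its passing probe sets ran from 1.15 to 1.60. Tfdp2, a partner of E2F factors, gave 0.85 and Rbl2, a retinoblastoma-related repressor of quiescent cells, -0.77. Of the cyclin-dependent kinase inhibitors, 3 of 4 that passed were above 0, with Cdkn1a at 0.53, Cdkn2c at 0.30 and Cdkn1b, encoding p27, at 0.26.

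Genes of the mitotic spindle and kinetochore, which act after replication is complete, were above 0 in 26 of 31 cases. The share above 0 of all genes that passed was 44.8%. The mitotic genes had a median of 0.20 and none at 2-fold. At 1.5-fold 2 of these 31 were higher (6.45%), close to the 8.49% of all genes that passed, while 11 of the 43 replication factors were (25.6%). The largest differences were those of the motor gene Kif4 (0.88), Kif20b (0.69) and the kinetochore gene Spc24 (0.53). Mki67, the usual marker of cycling cells, read 11.60 and 11.54. With 1 array for each label the difference between the replication and the mitotic lists could not be tested.

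**Figure D4:**
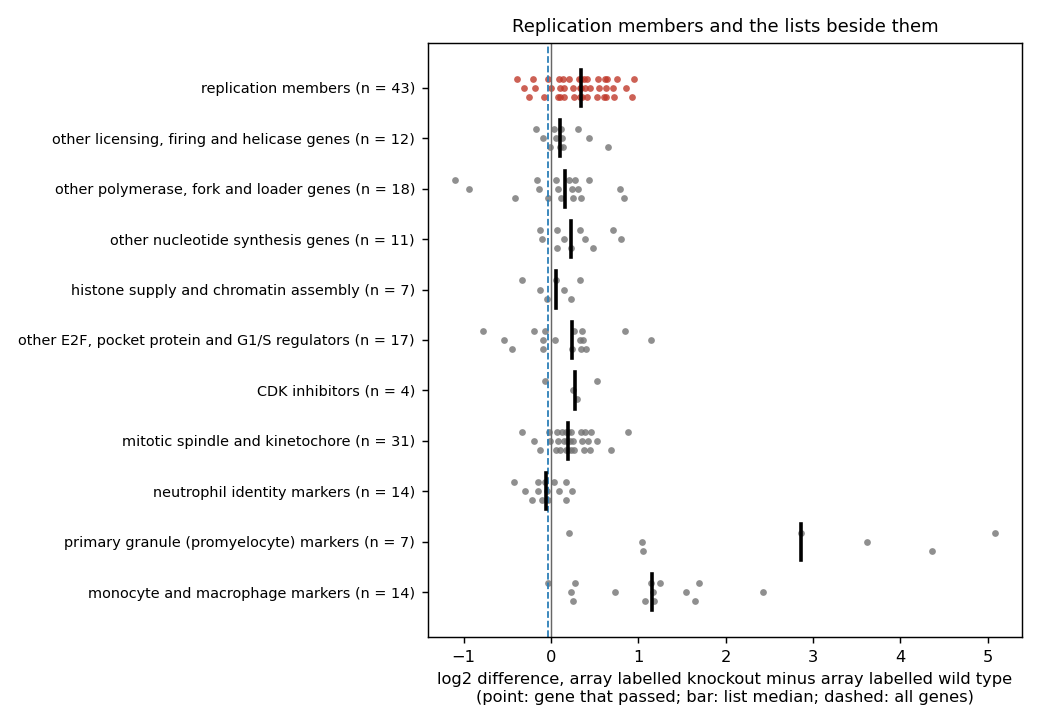
Each point is the log2 difference of a gene that passed, bars are list medians and the dashed line is the median of all genes that passed (-0.04). The replication factors have a median of 0.34, the mitotic genes 0.20 and the neutrophil markers -0.06. The primary granule and the monocyte and macrophage markers lie farther to the right, at 2.86 and 1.16. Some genes of these last lists passed through the array labelled knockout alone.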

How the data were processed

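Total RNA was biotin-labelled and hybridised to 1 array per genotype, per the labels' protocols. The authors deposited log2 probe set summaries, and the submitters' processing notes name RMA without version or settings. RMA gives no detection call, and background in weak values understates their folds. Of 45101 probe sets, 64 controls were left out. Of the rest, 34945 had 1 symbol, 932 had several and 9160 were not listed. Symbols were updated through Entrez identifiers against a GRCm38.p6 gene table (34741 matched). The brightest probe set on average stood for a gene, which passed when its larger reading was no lower than that array's median. The size rule was 2-fold. Values were given for the 15 passing members with the largest absolute difference and the 8 with the highest mean, other members by role, and up to 3 genes of each other list. The members and lists were chosen with earlier results of these data known. Gene tables and counts were computed with pandas 2.3.3 and the lowess trend with statsmodels 0.14.6, and the procedure was tested on simulated data. The simulated shifts were larger than any member's difference here, so that test does not cover differences of the size reported. Alternatives were other level filters, scalings, probe set rules and 1.5-fold. The number of arrays limits the precision.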

Additional observations from a re-analysis of the deposited data

How the results depend on the processing

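No paired analysis was possible because each label has 1 array. The count of members above 0 (35 of 43) was 37 of 43 after quantile normalisation or removal of a lowess trend, 35 of 43 after centring on array medians, 31 of 40 with the mean of all probe sets and 32 of 39 without probe sets that may match other sequences. With the level filter at the 75th percentile fewer members were left, 22 of 27, and counted by probe set, a setting added after the values were seen, it was 62 of 82. The median difference (0.34) ran from 0.259 to 0.398, lowest by probe set (0.259) and, after averaging the probe sets of each gene, 0.2698. The count at 2-fold (0) was 1 after quantile normalisation, after lowess and by probe set, and 11 at 1.5-fold. Of 23 members with both values given, 3 changed sign under at least 1 setting: Orc2 and Rfc1, which were -0.26 and -0.13 under their lowest settings, and Cdk2. The medians of the clamp and loader, helicase activation, polymerase, and cyclin E and Cdk2 roles changed sign under at least 1 setting, reaching -0.037, -0.035, -0.099 and 0.62. The MCM median stayed between 0.43 and 0.77.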
